A study of Mus musculus with 4 samples.

Results

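Transcript levels of the translation factors and tRNA synthetases were compared between the hippocampus of 2 PND mice and that of 2 control mice on day 1 post-surgery. The members were the protein-coding genes of the deposited table whose symbol begins with Eif or Eef and a digit, or is that of a tRNA synthetase named by the letter of its amino acid (Aars, Aars2 and so on, with Eprs). This rule, which used no measured value, took in 102 of 29300 genes, namely 55 initiation factors, 12 elongation factors and 35 tRNA synthetases. Kinases and methyltransferases with such symbols (Eif2ak1 to Eif2ak4, Eef2k, Eef1akmt and Eef2kmt genes) stayed in their group and are also described apart. All mice were male wild-type C57BL/6 animals aged 7 to 8 months. Control mice, labelled sham, received isoflurane anesthesia and tramadol without a fracture, and PND mice received both together with a fracture of the tibia fixed by an intramedullary nail. The p-values rest on the spread between 2 mice per group, each sequenced once.

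Initiation factors bring the initiator tRNA, the small ribosomal subunit and the mRNA together. eIF2 carries the initiator tRNA, eIF2B recharges eIF2 with GTP, eIF4F binds the cap, eIF3 holds the small subunit, and eIF5B joins the large one. In elongation eEF1A delivers the charged tRNAs and eEF2 moves the ribosome along the mRNA. The tRNA synthetases charge each tRNA with its amino acid, with separate genes for most of the cytosolic and mitochondrial enzymes. In neurons these steps are known as control points of local protein synthesis and of the stress response in which kinases phosphorylate eIF2.

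Libraries held 15763432 to 18573386 counts, and 17144 genes passed the filter on low counts, among them 99 of the 102 members. Eif3j2, the cap-binding homologue Eif4e1b and Eef1akmt3 did not pass it. Replicates differed by more than sampling noise (chi-square per degree of freedom 13.5 in control and 8.50 in PND mice). These values average over genes and do not describe a typical one. Genes such as Ttr, with 1566 and 92825 counts in the control mice, weigh heavily in them. Levels are given as CPM, the counts relative to the library size after scaling by TMM, an edgeR method that balances libraries on their typical gene. The first control mouse stood apart in choroid plexus markers, with 120 CPM against 1987 to 5293 CPM in the other mice, and the counts without it are given. A gene was called at an adjusted p under 0.05 in the quasi-likelihood test of edgeR, adjusted by Benjamini-Hochberg over all genes tested. By this rule 26.0% of all genes tested were called, 13.1% higher and 12.8% lower in PND mice. The calls followed the base composition of the transcripts. When the genes were cut into 3 equal classes of GC content, 33.3% were higher and 0.789% lower in the lowest class (up to 47.3%), 5.19% and 8.2% in the middle class, and 0.859% and 29.6% in the highest class (above 53.5%). A second fit took out, by offsets, how the counts of a library ran with the length and GC content of transcripts, and then called 2.45% of the genes, 0.957% higher and 1.49% lower. Its values are given as those with offsets. The trend with GC content differed between the groups. The offsets therefore take out any difference between PND and control mice that runs with GC content, whatever its source, which was not tested.

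Among the members, initiation factors moved in both directions, while elongation factors and tRNA synthetases were called in the lower direction only. The difference between the 3 kinds of factor was not tested. Of 53 initiation factors tested, 15 (28.3%) were higher and 11 (20.8%) lower in PND mice, and 7 and 3 of them also had a fold change past 1.5 or under 0.67. By this stricter rule 6.75% of all genes were higher and 2.25% lower. Of 11 elongation factors 3 were lower and 0 higher, with 0 higher at an unadjusted p under 0.05 in edgeR and 0 in DESeq2. Of 35 tRNA synthetases 7 were lower and 0 higher, and 5 were lower and 2 higher (Mars2 and Rars2) with scaling by library totals alone. Without the second control mouse 5 initiation factors were lower in place of 11. Without the first control mouse 14 initiation factors were higher and 9 lower, 3 elongation factors were lower, and 3 synthetases were lower and 1 higher. At an unadjusted p under 0.05 in edgeR, 4 synthetases were higher and 10 lower, where 19.9% of all genes tested were higher and 19.4% lower. DESeq2 called 5 synthetases lower and 0 higher after adjustment, where 12.3% of all genes tested were lower and 10.7% higher. The median log2 fold change was -0.077 for initiation factors, -0.20 for elongation factors and -0.15 for synthetases, against 0.012 over all genes tested. In each of the 36 members called the 2 groups did not overlap, which adds little, since calls favor such genes. Over the 99 members tested, called or not, 28 lay higher and 53 lower without overlap. Of all genes tested 33.2% showed this arrangement in the higher direction and 32.2% in the lower. With the offsets the calls were 2 higher and 1 lower initiation factor, 1 lower elongation factor and 0 synthetases. At an unadjusted p under 0.05 the offset fit had 18 initiation factors lower and 6 higher, 3 elongation factors lower and 0 higher, and 9 synthetases lower and 0 higher, where 14.4% of all genes tested were lower and 8.46% higher.

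**Figure D1:**
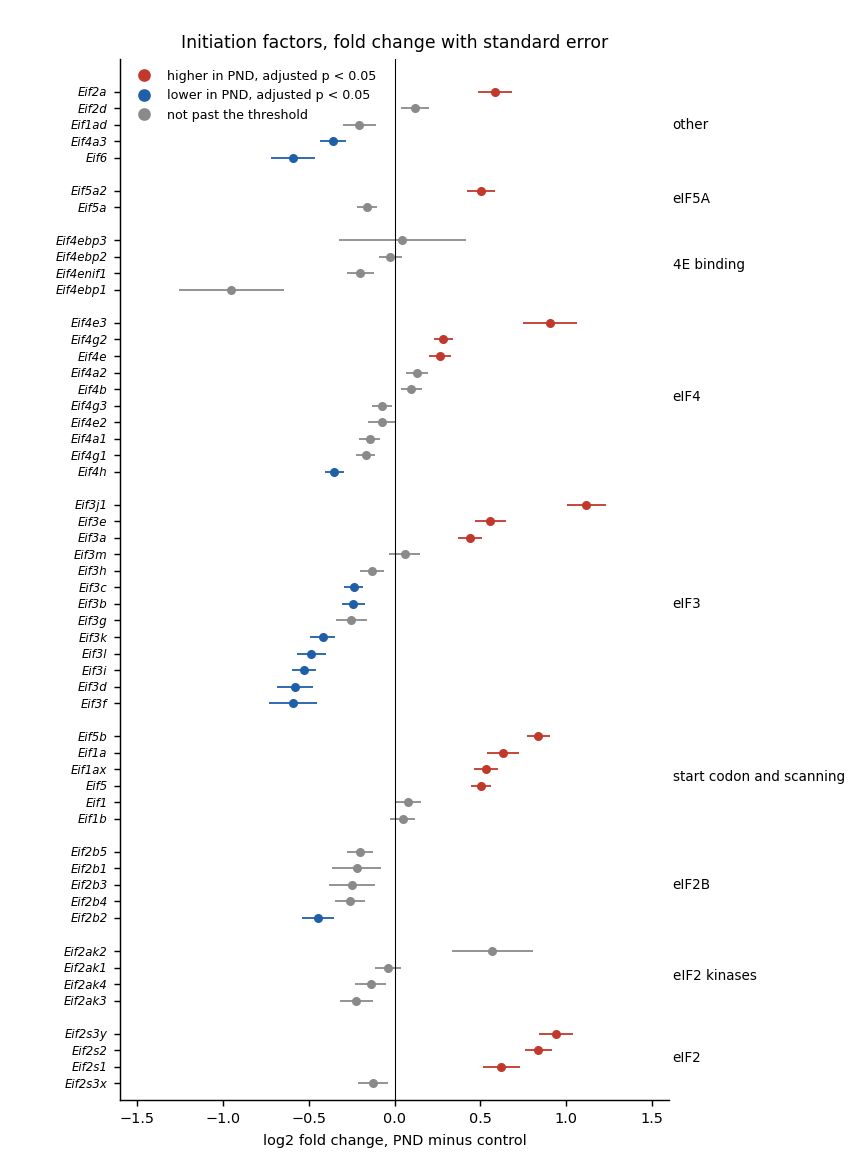
Log2 fold change (PND minus control) of the 53 initiation factors tested, by subgroup, with points at the estimate and bars of 1 standard error. Red and blue points are members called higher and lower in PND mice, from Eif3j1 at 1.12 to Eif6 at -0.59, and grey points were not called.

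The eIF2 trimer was higher in PND mice at 3 of its 4 genes, where 13.1% of all genes tested were higher, and 33.3% of those in the class with the lowest GC content, to which the 3 belong. Eif2s2, the beta subunit, had 30.3 and 30.2 CPM in the control mice and 53.0 and 55.0 CPM in the PND mice, a log2 fold change of 0.84 ± 0.079 (SE, 2 mice per group, edgeR adjusted p = 0.0043). Eif2s1, the alpha subunit that the stress kinases phosphorylate, had 24.4 and 21.2 CPM against 34.2 and 35.9 CPM (log2 fold change 0.62 ± 0.11, edgeR adjusted p = 0.0094). The gamma subunit has an X-linked and a Y-linked gene in mice, both active in males, and their values went apart, a difference that was not tested. Eif2s3y had 40.9 and 39.0 CPM in the control mice and 70.2 and 82.8 CPM in the PND mice (log2 fold change 0.94 ± 0.099, edgeR adjusted p = 0.0045). Eif2s3x had 53.2 and 59.1 CPM against 50.2 and 52.8 CPM, a log2 fold change of -0.13 ± 0.085 that was not called (edgeR adjusted p = 0.32). Within a mouse, the ratio of Eif2s3x to Eif2s3y counts was 1.30 and 1.52 in control mice against 0.714 and 0.638 in PND mice. Per kilobase of transcript, the mean ratio was 0.708 against 0.339. That ratio rests on 1 transcript length per gene (3647 and 1836 nt) and on Eif2s3x counts, whose shared windows are given below. Only its shift between groups is read. The counts of the 4 genes summed to 149 and 149 CPM in control mice and 208 and 227 CPM in PND mice. With the offsets the log2 fold changes were 0.32 for Eif2s2, 0.093 for Eif2s1, 0.31 for Eif2s3y and -0.46 for Eif2s3x, with edgeR adjusted p from 0.053 to 0.64. Eif2s3x was called lower by edgeR with the offsets averaged over basic transcripts, a setting chosen after seeing the data (-0.49, adjusted p = 0.048) and with the replicate block and offsets (-0.46, adjusted p = 0.0089).

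The start of the coding sequences of the gamma subunit pair is shown because reads can be assigned to either gene through the bases in capitals, where the 2 differ. Over 1419 nt the coding sequences were 86.3% identical, and no 75 nt window of Eif2s3y transcripts occurred in another gene, while 34.2% of the windows of Eif2s3x also occurred in other genes, of which Gm2223 and Eif2s3x-ps1 led. Eif2s3x (mm10 chromosome X, 94188707 to 94212862, minus strand) and Eif2s3y (chromosome Y, 1010543 to 1028847, plus strand) are given from the start codon, 5′ to 3′, for 90 nt with 16 differences, across the first exon junctions.
Eif2s3x: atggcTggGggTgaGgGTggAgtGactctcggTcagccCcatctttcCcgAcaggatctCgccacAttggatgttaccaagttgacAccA
Eif2s3y: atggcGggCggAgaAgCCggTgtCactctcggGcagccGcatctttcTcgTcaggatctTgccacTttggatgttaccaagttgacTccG
The last base of the codon was G or C in 39.5% of the codons of Eif2s3x and in 28.1% of those of Eif2s3y.

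Of the 4 eIF2 kinases 0 were called by edgeR, 0 at its unadjusted p under 0.05 and 0 by DESeq2, where edgeR called 26.0% of all genes tested. Eif2ak2 (PKR, activated by double-stranded RNA) had 3.89 and 5.80 CPM in the control mice and 6.96 and 7.47 CPM in the PND mice, with a log2 fold change of 0.57 ± 0.24 (edgeR adjusted p = 0.13). Eif2ak3 (PERK, the kinase of the endoplasmic reticulum) had 29.5 and 27.8 CPM against 24.4 and 24.7 CPM, a log2 fold change of -0.22 (edgeR adjusted p = 0.13). Eif2ak4 (GCN2, which senses uncharged tRNA) and Eif2ak1 (HRI) had log2 fold changes of -0.14 and -0.038. All 5 subunits of eIF2B, the exchange factor for eIF2, had negative log2 fold changes, from -0.45 to -0.20, and 1 was called lower, where 12.8% of all genes tested were. Eif2b2, the beta subunit, had 33.9 and 36.7 CPM in the control mice and 26.5 and 25.3 CPM in the PND mice (log2 fold change -0.45 ± 0.094, edgeR adjusted p = 0.018, with offsets -0.28 and 0.15). Its call was lost without the second control mouse or the second PND mouse. Eif2b5, the catalytic subunit, had 48.2 and 48.2 CPM against 42.5 and 41.4 CPM and was not called (log2 fold change -0.20, edgeR adjusted p = 0.098).

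Of the 6 genes that act in scanning, start codon choice and subunit joining, 4 were higher and 0 lower, against the same 13.1% and 12.8% of all genes tested. The 4 also lie in the class with the lowest GC content. Eif5b, the GTPase that joins the large subunit, had 55.0 and 56.0 CPM in the control mice and 97.3 and 101 CPM in the PND mice. Its log2 fold change was 0.84 ± 0.067 (edgeR adjusted p = 0.0042) and 0.50 with offsets (edgeR adjusted p = 0.034), so it was called in both fits. Part of its transcripts (13.0% of windows) overlaps Rev1 on the opposite strand, and whether counting used strand is not given in the sources used here. Eif5, which makes eIF2 hydrolyse GTP, had 146 and 146 CPM against 204 and 210 CPM (log2 fold change 0.50 ± 0.058, edgeR adjusted p = 0.0046, with offsets -0.051). Both genes of the scanning factor eIF1A were higher as well. Eif1ax had 116 and 107 CPM against 158 and 164 CPM, and Eif1a had 26.2 and 23.8 CPM against 38.5 and 39.0 CPM (log2 fold changes 0.53 and 0.63, with offsets -0.072 and 0.13). Eif1 and Eif1b, which guard start codon fidelity, had groups that overlapped and log2 fold changes of 0.077 and 0.047. Among these, the direction of Eif5 and Eif1ax was positive in the fit without offsets and negative with them.

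Of 13 eIF3 subunits tested 3 were higher and 7 lower, where 13.1% of all genes tested were higher and 12.8% lower. With offsets 2 subunits had a positive and 11 a negative log2 fold change, and 1 was called higher and 1 lower. The higher ones were Eif3j1, Eif3e and Eif3a. Eif3a, the largest subunit, had 143 and 130 CPM in the control mice and 188 and 183 CPM in the PND mice (log2 fold change 0.44 ± 0.069, edgeR adjusted p = 0.0074), and Eif3e had a log2 fold change of 0.56. With offsets neither was called, at 0.13 for Eif3a and -0.0086 for Eif3e. Eif3j1, the gene of the loosely bound subunit eIF3j, had the largest positive log2 fold change of the members tested. It had 16.4 and 14.1 CPM against 33.2 and 32.9 CPM, a log2 fold change of 1.12 ± 0.11 (edgeR adjusted p = 0.0045), and remained called with offsets (0.70, edgeR adjusted p = 0.041). Its counts are uncertain because 47.3% of its windows also occur in other genes. Of its near-copy Eif3j2 87.4% of the windows are shared, and Eif3j2 itself had 1 and 1 counts in control against 11 and 8 in PND mice, too few to pass the filter.

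The lower eIF3 subunits were Eif3f, Eif3d, Eif3i, Eif3l, Eif3k, Eif3b and Eif3c. Eif3i, a subunit with a ring of WD repeats, had 79.5 and 80.3 CPM in the control mice and 56.7 and 54.1 CPM in the PND mice. Its log2 fold change of -0.53 ± 0.070 (edgeR adjusted p = 0.0054) was also called with offsets (-0.44, edgeR adjusted p = 0.043). Eif3f had 153 and 166 CPM against 122 and 89.8 CPM, so the PND mice differed from each other by about as much as the higher of them did from the nearest control mouse (log2 fold change -0.59 ± 0.14, edgeR adjusted p = 0.025). Eif3d, a subunit that can bind the cap itself, had 28.2 and 27.9 CPM against 19.6 and 17.9 CPM (log2 fold change -0.58 ± 0.10, edgeR adjusted p = 0.010). For Eif3d 34.2% of the windows are shared with Gm17638 on the opposite strand. Eif3l and Eif3k, which sit side by side in the complex, had log2 fold changes of -0.49 and -0.42, and Eif3c and Eif3b of -0.24 and -0.24. With offsets the values were -0.62 for Eif3f, -0.42 for Eif3d, -0.44 for Eif3l, -0.31 for Eif3k, -0.29 for Eif3c and -0.050 for Eif3b, and of the 7 lower subunits Eif3i alone was called. The Eif3b call was lost when any 1 of the 4 mice was left out, that of Eif3c without either control mouse or the second PND mouse, and that of Eif3f without the second control mouse. Without the filter on low counts the calls of Eif3b, Eif3c and Eif3f were lost. That of Eif3b was also lost with scaling by library totals only and with a minimum count of 50. The SEs of the eIF3 subunits ran from 0.057 to 0.14. Eif3g, Eif3h and Eif3m were not called.

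In the eIF4 group 3 genes were higher and 1 lower of 10 tested, with 13.1% and 12.8% over all genes, and edgeR did not call the helicases Eif4a1 and Eif4a2 or the scaffolds Eif4g1 and Eif4g3. DESeq2 called Eif4g1 lower, and edgeR with the replicate block and the offsets called Eif4a1 and Eif4a2 lower. Per kilobase of transcript, Eif4a2, the helicase gene with the highest level among the initiation factors, stood at 229 CPM per kb in control mice and 250 in PND mice. Eif4a2 had 526 and 484 CPM against 558 and 547 CPM, and Eif4a1, its paralog, had 208 and 212 CPM against 196 and 185 CPM. The log2 fold changes were 0.13 and -0.15, and neither was called (edgeR adjusted p = 0.18 and 0.13). The scaffold Eif4g1 had 371 and 378 CPM against 332 and 334 CPM (log2 fold change -0.17 ± 0.054, edgeR adjusted p = 0.064). The value for the related scaffold Eif4g2 (DAP5), which lacks the binding site for eIF4E, was 462 and 447 CPM against 563 and 544 CPM (log2 fold change 0.28 ± 0.057, edgeR adjusted p = 0.015, with offsets -0.093). The Eif4g2 call was lost without the second control mouse. Eif4e, the cap-binding protein, had 85.3 and 82.1 CPM against 101 and 101 CPM (log2 fold change 0.27 ± 0.064, edgeR adjusted p = 0.027), and its sign turned with offsets (-0.28, edgeR adjusted p = 0.094). The higher call was lost when any 1 of the 4 mice was left out and without the filter, and with the replicate block and offsets edgeR called Eif4e lower (-0.28, adjusted p = 0.025). Its homologue Eif4e3 had 9.98 and 7.82 CPM against 16.4 and 16.9 CPM (log2 fold change 0.91 ± 0.16, edgeR adjusted p = 0.010, with offsets 0.62). Eif4h, a helicase cofactor, had 390 and 399 CPM against 306 and 312 CPM (log2 fold change -0.35 ± 0.055, edgeR adjusted p = 0.0072, with offsets -0.20).

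Of the 4 genes whose proteins bind eIF4E, 0 were called by edgeR after adjustment, 2 at its unadjusted p under 0.05 (Eif4ebp1 and Eif4enif1) and 0 by DESeq2. Over all genes tested edgeR called 26.0%, and at its unadjusted p under 0.05 19.9% were higher and 19.4% lower. Eif4ebp1, the repressor that mTOR phosphorylates, had the lowest log2 fold change of all members, -0.95 ± 0.31, from 3.89 and 4.81 CPM to 1.69 and 2.78 CPM (edgeR adjusted p = 0.064). It was called lower with the replicate block and without the second PND mouse. Eif4ebp2, the form most abundant in brain, had 80.5 and 77.3 CPM against 78.5 and 76.4 CPM (log2 fold change -0.027 ± 0.067, edgeR adjusted p = 0.81). Per kilobase, Eif4ebp2 stood at 55.5 CPM per kb in control mice and Eif4ebp1 at 2.18. The eIF5A genes, whose products relieve stalled ribosomes, are a pair whose difference in response was not tested. Eif5a had 249 and 238 CPM against 222 and 213 CPM (log2 fold change -0.16, edgeR adjusted p = 0.094, with offsets -0.13), and Eif5a2 had 40.5 and 37.1 CPM against 54.4 and 55.5 CPM (log2 fold change 0.50 ± 0.082, edgeR adjusted p = 0.0083, with offsets -0.18). Of the remaining initiation genes Eif2a, a factor apart from eIF2, was higher at 0.58, and Eif4a3, the helicase of the exon junction complex, was lower at -0.36 (with offsets 0.23 and -0.22). The Eif4a3 call was lost without the second control mouse or the second PND mouse. Eif6, which keeps the large subunit from the small one, was lower at -0.59 ± 0.13 (40.2 and 51.4 CPM against 30.9 and 29.8 CPM, edgeR adjusted p = 0.020, with offsets -0.34). The 2 control mice differed in Eif6 by more than the lower of them differed from the PND mice, and the call was lost without the second control mouse and without the filter.

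The 27 initiation factors not called had log2 fold changes from -0.95 to 0.57. Among them Eif2d, which delivers initiator tRNA by another route, stood at 0.12, Eif4b, a helicase cofactor, at 0.097, and Eif4e2, a cap-binding homologue, at -0.077.

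**Figure D2:**
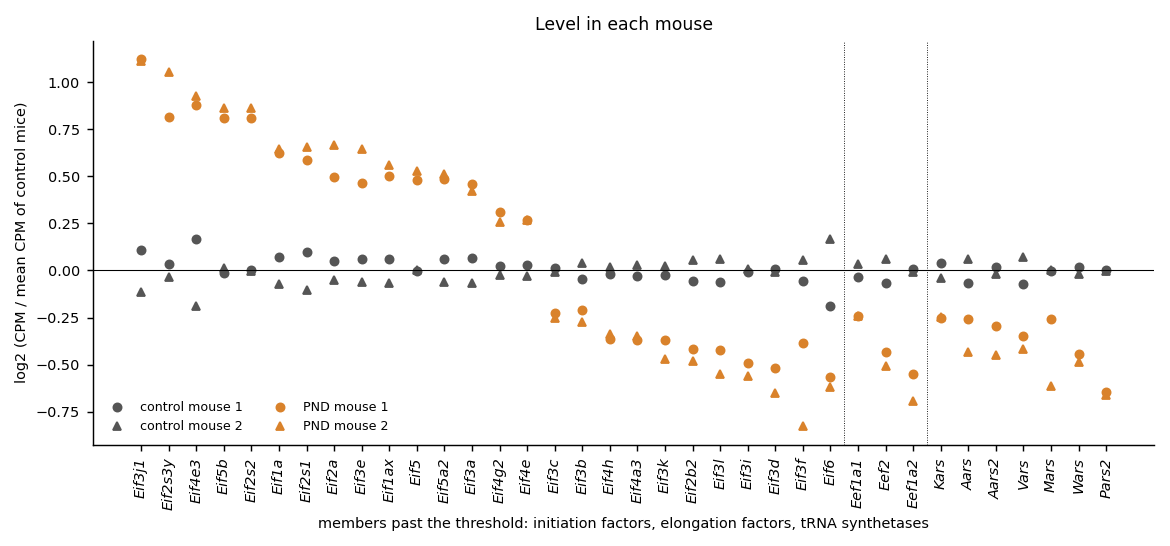
Level of the 36 called members in each mouse, as log2 of the CPM over the mean CPM of the control mice, with circles for the first and triangles for the second mouse of a group (grey control, orange PND). In every column both orange symbols lie on one side of both grey ones, and dotted lines part initiation factors, elongation factors and tRNA synthetases.

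The 3 elongation genes with the highest levels were the 3 called lower. Per kilobase of transcript, Eef1a1 stood at 1358, Eef1a2 at 576 and Eef2 at 482 CPM per kb in control mice. Eef1a1, Eef1a2 and Eef2 together held 5004 and 5246 CPM in the control mice and 3983 and 3851 CPM in the PND mice, 0.764 of the control mean. The other 9 elongation genes summed to 440 and 441 CPM against 465 and 432 CPM. Eef1a2, the eEF1A form of neurons and muscle, had 1207 and 1194 CPM against 822 and 743 CPM, a log2 fold change of -0.62 ± 0.068 (edgeR adjusted p = 0.0045). Eef2, the translocase, had 1424 and 1554 CPM against 1103 and 1046 CPM (log2 fold change -0.47 ± 0.068, edgeR adjusted p = 0.0064). Eef1a1, the widely expressed form, had 2373 and 2498 CPM against 2058 and 2061 CPM (log2 fold change -0.24 ± 0.061, edgeR adjusted p = 0.031). With offsets the log2 fold changes were -0.30 for Eef1a2, -0.25 for Eef2 and -0.40 for Eef1a1, so the order of the eEF1A pair turned and Eef1a1 alone stayed called (edgeR adjusted p = 0.047). With the replicate block and offsets all 3 were called lower by edgeR. With scaling by library totals only, edgeR called 2 of the 3, and Eef1a1 was lost. Without the second control mouse or without either PND mouse, Eef1a1 was not called. Of the windows of Eef1a1 26.6% also occur in other genes, Gm13456 among them, and of those of Eef1a2 none.

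Of the 3 subunits of the exchange factor eEF1B, which recharges eEF1A, 0 were called by edgeR, 0 at its unadjusted p under 0.05 and 0 by DESeq2. With 26.0% of all genes tested called by edgeR, 0 of 3 is not particular to these genes. Eef1b2 had 70.2 and 75.1 CPM in the control mice and 80.3 and 74.2 CPM in the PND mice (log2 fold change 0.089 ± 0.077, edgeR adjusted p = 0.44), and Eef1d and Eef1g had log2 fold changes of 0.094 and 0.044. The groups of all 3 overlapped, and 38.0% of the windows of Eef1g occur in other genes. Eef2k, the kinase that switches eEF2 off, had 55.0 and 55.5 CPM against 47.7 and 48.4 CPM and was not called (log2 fold change -0.20 ± 0.072, edgeR adjusted p = 0.084). The methyltransferases of eEF1A and eEF2 and Eef1e1, a scaffold protein of the multisynthetase complex named as an elongation factor, were not called either.

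The coding sequences of the eEF1A pair were 80.1% identical over 1389 nt, with G or C as the last base of 51.8% of the codons of Eef1a1 and 72.6% of those of Eef1a2. They are shown because the pair has nearly the same role and different base composition. The first 90 nt from the start codon, 5′ to 3′ with the 15 differing bases in capitals, lie in 1 exon each, at chr9:78480565-78480654 (minus strand) for Eef1a1 and chr2:181155317-181155406 (minus strand) for Eef1a2 in mm10.
Eef1a1: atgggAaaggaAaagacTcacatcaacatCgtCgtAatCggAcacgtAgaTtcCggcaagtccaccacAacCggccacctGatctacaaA
Eef1a2: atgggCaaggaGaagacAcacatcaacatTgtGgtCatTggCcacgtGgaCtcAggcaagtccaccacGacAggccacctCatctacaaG
Over the whole transcripts the GC content was 47.4% for Eef1a1 and 60.6% for Eef1a2.

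**Figure D3:**
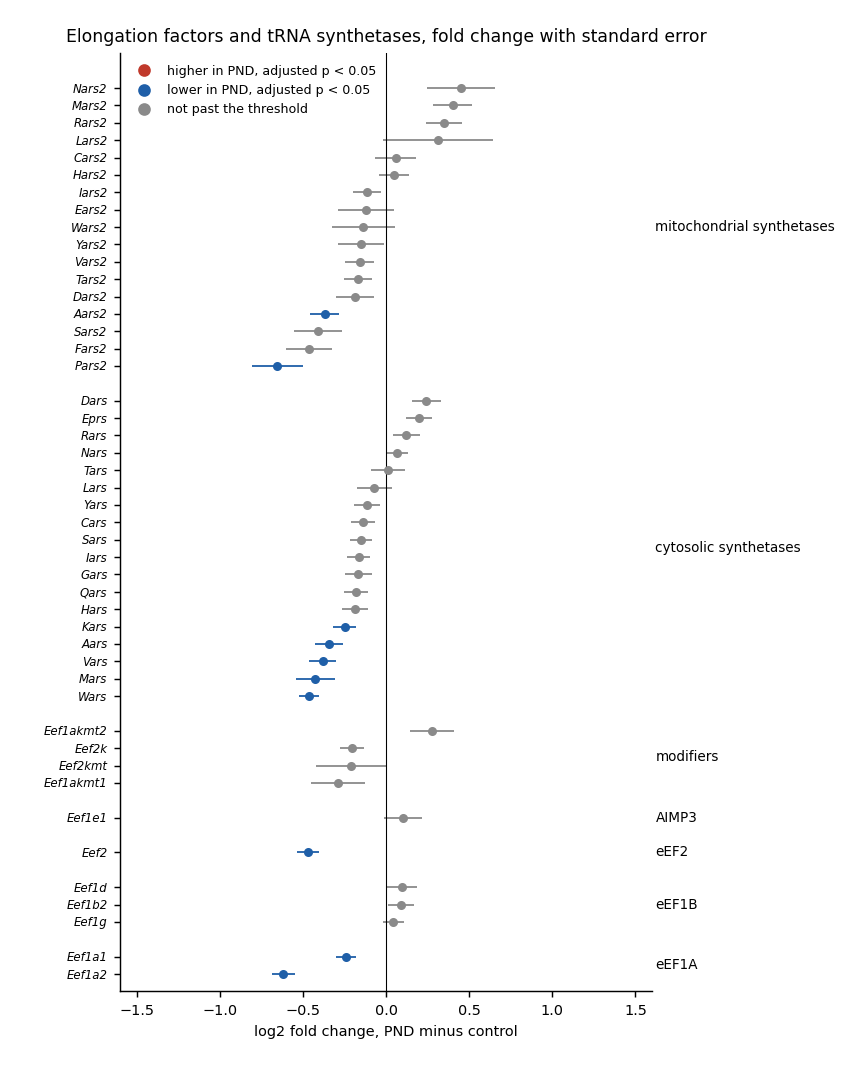
Log2 fold change (PND minus control) of the 11 elongation factors and 35 tRNA synthetases tested, by subgroup, with points at the estimate and bars of 1 standard error. Blue points are members called lower in PND mice, from Pars2 at -0.65 to Eef1a1 at -0.24, and no member is red, the color of higher calls.

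Among the tRNA synthetases 24 of 35 log2 fold changes were negative, and in 20 both PND mice lay below both control mice. In 7 both PND mice lay above both control mice and in 8 the groups overlapped, where 32.2% of all genes tested lay below and 33.2% above. The summed level was 2066 and 2080 CPM in control mice and 1914 and 1889 CPM in PND mice, a ratio of 0.918. Cytosolic enzymes (5 lower of 18, median log2 fold change -0.16) and mitochondrial enzymes (2 lower of 17, median -0.14) had similar medians, and their difference was not tested. Over all genes tested 12.8% were lower. Of the 8 synthetases of the multisynthetase complex, in which several cytosolic enzymes are held together, 2 were lower, Mars and Kars. Both calls were lost without either control mouse or the second PND mouse, without the filter and with library totals only, and that of Kars also without the first PND mouse and in DESeq2.

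Wars, the tryptophanyl enzyme, which interferon is known to induce, had 134 and 131 CPM in the control mice and 97.7 and 94.8 CPM in the PND mice. Its log2 fold change was -0.46 ± 0.062 (edgeR adjusted p = 0.0055), and -0.36 with offsets (edgeR adjusted p = 0.054). It had the highest level of the synthetases per kilobase, 72.7 CPM per kb in control mice and 52.8 in PND mice. Vars, the valyl enzyme, had 71.5 and 78.8 CPM against 59.0 and 56.3 CPM (log2 fold change -0.38 ± 0.080, edgeR adjusted p = 0.018, with offsets -0.062). Mars, the methionyl enzyme, had 68.6 and 68.8 CPM against 57.5 and 44.9 CPM, with a wide gap between the PND mice (log2 fold change -0.43 ± 0.12, edgeR adjusted p = 0.044, with offsets -0.29). Mars overlaps Ddit3 on the opposite strand. Aars, the alanyl enzyme, had 190 and 208 CPM against 167 and 147 CPM (log2 fold change -0.34, edgeR adjusted p = 0.027), and Kars, the lysyl enzyme of both compartments, had a log2 fold change of -0.25 (edgeR adjusted p = 0.042). With offsets these 2 were at -0.13 and -0.23. Part of Aars overlaps Exosc6 on the same strand.

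Pars2, the prolyl enzyme of mitochondria, had the lowest log2 fold change of the synthetases. It had 10.8 and 10.8 CPM in the control mice and 6.90 and 6.81 CPM in the PND mice, a log2 fold change of -0.65 ± 0.15 (edgeR adjusted p = 0.025, with offsets -0.48 and 0.14). DESeq2 did not call Pars2, and its edgeR call was lost whichever mouse was left out. Aars2, the mitochondrial alanyl enzyme, had 48.6 and 47.4 CPM against 39.2 and 35.1 CPM (log2 fold change -0.37 ± 0.088, edgeR adjusted p = 0.026, with offsets -0.070). Without the filter on low counts the calls of Aars2 and Aars were lost. The synthetases with the highest values were mitochondrial as well. Nars2, Mars2 and Rars2 had log2 fold changes of 0.45, 0.40 and 0.35 and edgeR adjusted p-values of 0.15, 0.051 and 0.059, and with offsets 0.15, -0.27 and 0.018. Lars2, the mitochondrial leucyl enzyme, had 60.2 and 78.2 CPM in the control mice and 54.0 and 118 CPM in the PND mice, so that its highest and its lowest value were both in PND mice. Eprs, the double enzyme for glutamate and proline, had 83.8 and 75.9 CPM against 94.4 and 88.7 CPM (log2 fold change 0.20 ± 0.079, edgeR adjusted p = 0.12). The 28 synthetases not called ran from -0.46 (Fars2) to 0.45. The 7 synthetase calls were sensitive to the mice included, since without the second control mouse or without the second PND mouse 1 of them remained, Wars, and without the first control mouse 3 remained.

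RefSeq promoters of build GRCm38.p6 (250 bases before to 50 after the start site) were found for 75 of the 102 members, 24 of them synthetases. The promoters are shown because ATF4, the factor induced when eIF2 is phosphorylated, binds C/EBP-ATF elements, which several synthetase genes are known to carry. The letters TGATGNAA were searched on both strands. They occurred in 5 of 24 synthetase promoters, 1 of 43 initiation factor promoters (Eif2s3x) and 1 of 8 elongation factor promoters (Eef2k), against 4.51% of the 27025 promoters of all genes. The 30-base windows below run in the direction of transcription with the match in capitals, for Aars (chr8:111033840-111033869, plus strand), Gars (chr6:55037960-55037989, plus), Iars (chr13:49682126-49682155, plus), Tars (chr15:11399655-11399684, minus) and Yars (chr4:129189895-129189924, plus).
Aars: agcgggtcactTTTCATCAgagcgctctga
Gars: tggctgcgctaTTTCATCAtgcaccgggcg
Iars: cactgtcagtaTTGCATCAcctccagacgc
Tars: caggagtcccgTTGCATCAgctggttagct
Yars: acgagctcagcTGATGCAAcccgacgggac
Of these 5 genes Aars was lower, and Gars, Iars, Tars and Yars were not called, with log2 fold changes of -0.17, -0.16, 0.012 and -0.11. A match describes the letters of the window and no binding was measured. The NRF1 motif, searched in the same way, occurred in 7 of 43 initiation factor, 1 of 8 elongation factor and 4 of 24 synthetase promoters, against 5.19% of all promoters. This motif is rich in G and C, and the median GC content was 62.2% for the initiation factor, 61.5% for the elongation factor and 58.0% for the synthetase promoters against 52.7% for all promoters. The 7 initiation genes were Eif1, Eif2s1, Eif2s2, Eif3a, Eif3k, Eif4e and Eif5a, of which 4 were higher, 1 lower and 2 not called. Over all genes tested 13.1% were higher and 12.8% lower. In the class with the lowest GC content, to which the 4 belong, 33.3% were higher. With offsets the 7 genes were not called.

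Other genes of these pathways are given by list, to be read against the 13.1% of all genes tested that were higher and the 12.8% that were lower. In the integrated stress response list 1 of 7 genes was higher, Ppp1r15b, the constitutive subunit that directs the eIF2 phosphatase (41.8 and 40.0 CPM against 57.1 and 54.0 CPM, log2 fold change 0.44, edgeR adjusted p = 0.011, with offsets 0.36). Atf4, its central transcription factor, had 110 and 116 CPM against 119 and 94.2 CPM and overlapping groups, and its target Asns had a log2 fold change of -0.085. Ppp1r15a had 13.5 and 17.8 CPM against 11.2 and 11.9 CPM and was not called (log2 fold change -0.44, edgeR adjusted p = 0.105, with offsets -0.22). In this list 4 log2 fold changes were positive and 3 negative. In the mTOR and MNK list 1 of 11 was higher and 4 lower. Mtor, Rptor, Tsc2 and Larp1 had log2 fold changes of -0.42, -0.53, -0.43 and -0.23 (with offsets -0.27, -0.30, -0.26 and -0.091), and Rps6kb1, the S6 kinase gene, of 0.50 (with offsets -0.14). Both genes of the re-initiation pair were higher, Mcts1 at 0.67 and Denr at 0.31, with offsets 0.065 and -0.084. DESeq2 called 1 of the 2, and edgeR with offsets 0. Of 4 termination and recycling genes Abce1 was higher at 0.36, and of 5 poly(A)-binding genes Paip1 was higher at 0.53 (with offsets -0.21 and -0.070). Of 11 mitochondrial translation factors Mtif2 and Guf1 were higher at 0.69 and 0.42 (with offsets 0.28 and -0.010), and Tufm, the mitochondrial counterpart of eEF1A, was lower at -0.60 (74.0 and 67.6 CPM against 50.5 and 42.6 CPM, with offsets -0.41). Of the 8 synthetase partners, such as the phenylalanyl subunits Farsa and Farsb, 0 were called by edgeR, 2 at its unadjusted p under 0.05 and 0 by DESeq2.

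The direction of the members followed the GC content of their transcripts. All 15 members called higher belonged to the class of genes with the lowest GC content, which held 19 initiation factors, 3 elongation factors and 12 synthetases. In that class 15 of 19 initiation factors, 0 of 3 elongation factors and 0 of 12 synthetases were higher, where 33.3% of all genes were. In the class with the highest GC content 7 of 13 initiation factors, 2 of 4 elongation factors and 5 of 13 synthetases were lower, where 29.6% of all genes were. The median log2 fold change in the lowest class was 0.56 for initiation factors and 0.094 for synthetases, against 0.37 for all genes. In the highest class it was -0.26 and -0.34, against -0.27 for all genes. Across genes, which share their libraries and are not independent replicates, Spearman's rho of log2 fold change with GC content was -0.73 over the 99 members and -0.63 over 17120 genes, and -0.042 and -0.039 with offsets. With offsets it was -0.22 over the 53 initiation factors, 0.036 over the 11 elongation factors and 0.27 over the 35 synthetases, so the value over all members joins groups of opposite sign. With the offsets the median log2 fold change was -0.099 for initiation factors, -0.15 for elongation factors and -0.11 for synthetases, against -0.032 for all genes.

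**Figure D4:**
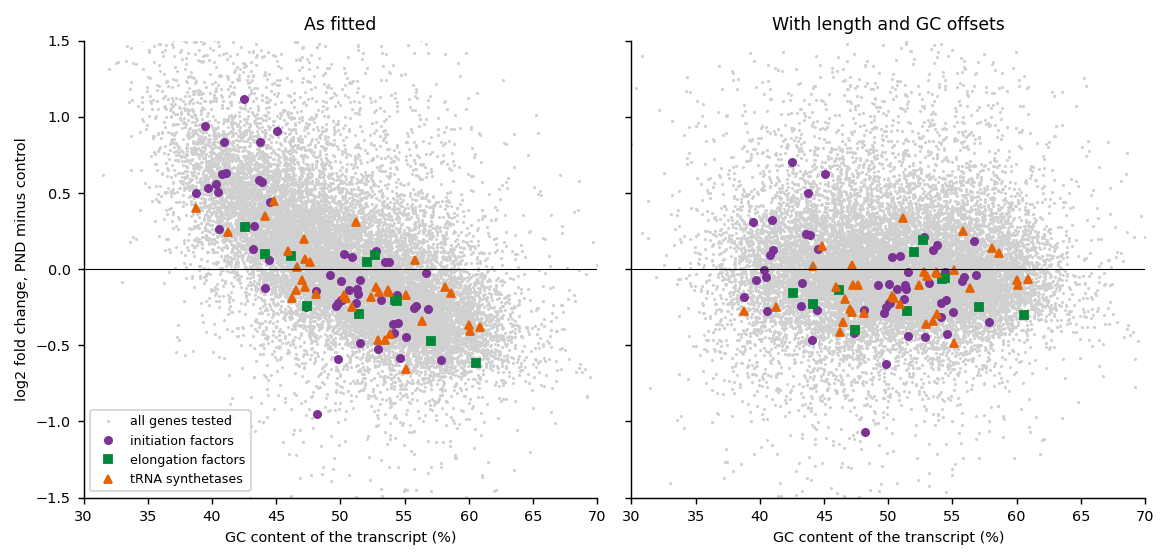
Log2 fold change (PND minus control) against the GC content of the transcript in percent, without (left) and with (right) offsets for the length and GC content of transcripts. Grey points are all genes tested, of which 240 lie outside the axes in at least 1 panel, and colored symbols are the members, which run from upper left to lower right in the left panel. In the right one Spearman's rho was -0.22 for the initiation factors and 0.27 for the synthetases.

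Related genes that do nearly the same work were set side by side within each mouse, in 13 pairs chosen after their values were seen, as a description with no test. The ratios are of counts, not per length, and only their shift between groups is read. Eef1a1 counts were 1.97 and 2.09 times those of Eef1a2 in the control mice and 2.51 and 2.77 times in the PND mice. Eif5a counts were 6.14 and 6.41 times those of Eif5a2 against 4.08 and 3.85 times. Mars counts, of the cytosolic methionyl enzyme, were 2.71 and 3.29 times those of mitochondrial Mars2 against 1.86 and 1.49 times. In 11 of the 13 pairs the ratio shifted toward the partner with the lower GC content in PND mice, with overlapping groups in 2 pairs, Eif1 and Eif1b and Aars and Aars2. The other 2 shifted the opposite way. Eif4e counts were 8.55 and 10.5 times those of Eif4e3 against 6.16 and 5.94 times, with GC contents of 40.5% and 45.0%. Eif1a counts were 0.225 and 0.223 times those of Eif1ax against 0.244 and 0.237 times, with GC contents of 41.1% and 39.7%. A like tally over other pairs of genes was not made. Over all genes tested Spearman's rho of log2 fold change with GC content was -0.63, so the tally is not particular to related genes.

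The coding sequences of the eIF5A pair, with transcript GC contents of 51.4% for Eif5a and 38.8% for Eif5a2, were 72.7% identical over 462 nt. The first 90 nt, with the 25 differing bases in capitals, are at chr11:69919226-69919315 (minus strand) for Eif5a and chr3:28782052-28782141 (plus strand) for Eif5a2 in mm10.
Eif5a: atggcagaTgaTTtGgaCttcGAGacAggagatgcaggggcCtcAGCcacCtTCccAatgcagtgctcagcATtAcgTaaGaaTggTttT
Eif5a2: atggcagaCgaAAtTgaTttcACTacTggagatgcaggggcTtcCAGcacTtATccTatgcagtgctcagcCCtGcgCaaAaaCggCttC

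**Figure D5:**
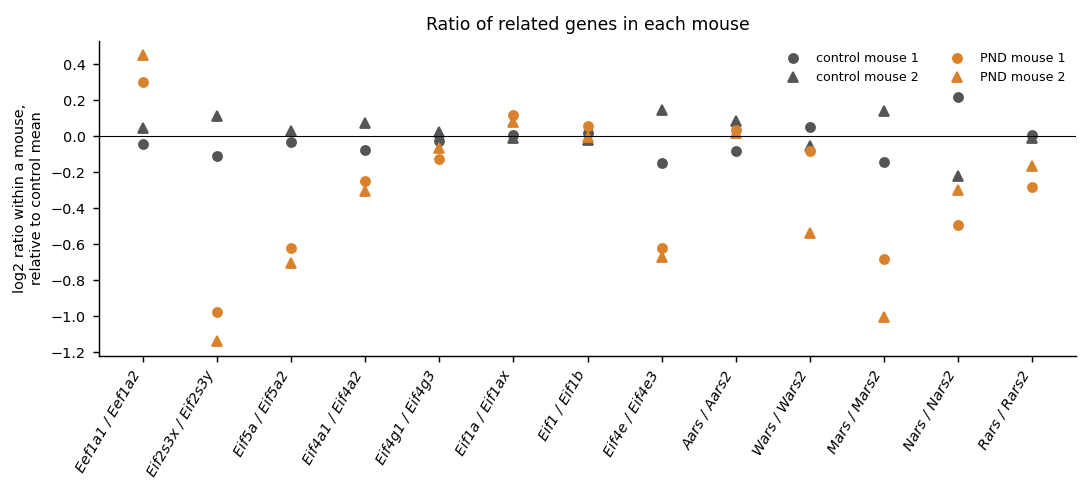
Log2 ratio of the counts of 13 pairs of related genes within each mouse, with the control mean set to 0 (grey control, orange PND, circles and triangles for the first and second mouse). Eif2s3x over Eif2s3y shows the largest shift, -1.06, and Eef1a1 over Eef1a2 shifted up by 0.38.

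The tissue was checked against its markers. Genes that mark hippocampal neurons were present in all mice and summed to 2222 and 2163 CPM in control and 1821 and 1723 CPM in PND mice, with 3 of 5 lower and 1 higher. These counts and those of the lists that follow stand against 13.1% higher and 12.8% lower over all genes tested. In bulk tissue, fewer cells of a type and less RNA per cell cannot be told apart. The 4 choroid plexus markers, Ttr above all, summed to 120 CPM in the first control mouse and 5293 CPM in the second, and to 1987 and 3377 CPM in the PND mice. The 4 oligodendrocyte markers summed to 5630 and 4904 CPM in control and 5595 and 3624 CPM in PND mice. Of the other lists, 1 of 4 astrocyte markers was higher (Aqp4, 0.73) and 1 lower (Aldh1l1, -0.49), 1 of 4 microglia markers was higher (P2ry12, 0.84), 1 of 3 endothelial markers was higher (Flt1, 0.41), and 1 of 3 inhibitory neuron markers was higher (Gad2, 0.32) and 1 lower (Slc32a1, -0.44). DESeq2 called 4 of 4 astrocyte and 5 of 5 hippocampal neuron markers. Of the thalamus and striatum markers 0 were called by edgeR or DESeq2, with 1 thalamus and 0 striatum markers at an unadjusted p under 0.05 in edgeR. Rora, of the thalamus list, was called higher with the replicate block, and DESeq2 gave Drd2, of the striatum list, no adjusted p. With offsets 1 of the 10 markers called stayed called, the hippocampal neuron gene Grik4 (-0.61, with offsets -0.43). P2ry12 was then at 0.18, Aqp4 at 0.25, Aldh1l1 at -0.30, Gad2 at -0.0027, Slc32a1 at -0.11 and Flt1 at 0.41, and among the hippocampal neuron genes Neurod6 went from 0.53 to 0.087, Slc17a7 from -0.39 to -0.12 and Wfs1 from -0.70 to -0.46. Prox1, the remaining gene of that list, was not called by edgeR, at 0.43 (adjusted p = 0.054) and 0.48 with offsets. It had 107 and 83.3 CPM in control and 137 and 119 CPM in PND mice. Slc17a7 held 1708 and 1669 CPM of the summed hippocampal neuron level in control and 1303 and 1283 CPM in PND mice. The summed levels were 1132 and 1009 CPM in control against 1133 and 1074 CPM in PND mice for astrocytes, 196 and 186 against 184 and 186 CPM for microglia, and 128 and 127 against 140 and 170 CPM for endothelial cells. They were 612 and 618 against 657 and 561 CPM for inhibitory neurons, 66.4 and 69.2 against 82.3 and 78.2 CPM for thalamus, and 58.0 and 95.2 against 64.1 and 68.2 CPM for striatum. Neutrophil and red blood cell markers summed to between 1.57 and 11.3 CPM in every mouse. Mitochondrially encoded protein-coding transcripts held 2.82% and 2.52% of the counts in control and 4.44% and 4.48% in PND mice. Mitochondrial rRNA held 0.221% and 0.175% against 0.650% and 0.653%, and the members held 1.27% and 1.29% against 1.20% and 1.18%. The part of these differences in the results for the members was not tested.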

How the data were processed

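Hippocampal poly(A) RNA of 2 control and 2 PND mice was sequenced as paired-end reads. After filtering, the authors aligned the reads to mm10 using HISAT, and they deposited raw counts of reads per gene and mouse, not normalized. The submitters' processing notes also list HISAT2 2.1.0, Bowtie2 2.2.3, TopHat2 and HTSeq 0.6.0. Strand use in counting is not given in the sources used here, and total counts ran from 15763432 to 18573386. The deposited table also holds the authors' own comparison (fold changes and p-values), which was not used.

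Genes were kept by edgeR's filterByExpr (minimum count 10), scaled by TMM and tested in R 4.3.3 with edgeR 4.0.16 (glmQLFit, glmQLFTest, condition as the only term), with Benjamini-Hochberg adjustment over all genes tested. DESeq2 1.42.0 was an alternative. The SE is the size of the log2 fold change divided by the square root of F. Offsets were smooth trends of each library with length and GC content (mgcv 1.9.3, basis size 8) of 1 GENCODE M21 transcript per gene. The steps were tested on simulated counts. Transcripts were cut into windows of 75 nt to find the share that another gene also holds. Coordinates are mm10. The members, lists and tests were chosen with earlier results of these data known. Named members were a fixed set of central factors and, in each group, up to 5 with the largest rise and up to 5 with the largest fall among those called without overlap between the groups. Other members were named after their values were seen. Alternatives were other scalings, filters and tests, the replicate number as a block, and leaving out each mouse. 1 promoter window is not reported here.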

Additional observations from a re-analysis of the deposited data

How the results depend on the processing

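Without a filter on low counts 1315 genes were higher and 1350 lower, with 7 initiation factors and 3 tRNA synthetases lower. With the length and GC offsets 164 genes were higher and 256 lower, with 2 initiation factors higher and 1 lower, 1 elongation factor lower and 0 synthetases, and medians of -0.15 for elongation factors and -0.11 for synthetases. With offsets averaged over basic transcripts, chosen after seeing the data, the counts were 154 and 244 genes, 2 and 2 initiation factors, 1 elongation factor and 0 synthetases, and the medians -0.090 and -0.12. By the fold rule the counts were 1158 and 386 genes, 7 and 3 initiation factors, 1 elongation factor and 1 synthetase. Scaling by library totals only gave medians of -0.030, -0.16 and -0.10 for the 3 groups and called 2 synthetases higher (Mars2 and Rars2), as did a minimum count of 50, with a synthetase median of -0.12.

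Leaving out 1 mouse gave 1201 to 2025 genes higher and 1207 to 2080 lower. It gave 13 to 14 initiation factors higher and 5 to 11 lower, with medians of -0.15 to -0.045. It gave 2 to 3 elongation factors lower, with medians of -0.21 to -0.12, and 0 to 1 synthetases higher and 1 to 5 lower. The fewest calls came without the second control mouse, and Eif2ak1 was at 0.012 without the first control mouse.

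Of the 36 members named by rule, signs turned with the offsets, the averaged offsets and the block with offsets for Eef1b2 (-0.14, -0.090 and -0.14), Eif4a2 (-0.25, -0.30 and -0.25), Eif4e (-0.28, -0.22 and -0.28), Eif4g2 (-0.093, -0.11 and -0.094) and Eif4ebp2 (0.18, 0.13 and 0.18). Over the 99 members tested the offsets turned 20 signs, 17 of them from positive to negative, so that 25 members were positive in place of 39. Of the members called higher 6 became negative, Eif5a2 (-0.18), Eif1ax (-0.072), Eif5 (-0.051) and Eif3e (-0.0086) beside Eif4e and Eif4g2. With library totals only, Eif2ak1 was at 0.0097 and Eif4ebp2 at 0.021, and with a minimum count of 50 Eif4ebp2 was at 0.00033. The cause of these changes was not tested.

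The replicate number is shared by the labels alone. With 2 pairs, deviations of same-numbered mice correlated at 0.22, which does not make them pairs. The replicate block called 1 synthetase higher (Mars2) and 8 lower, with Fars2 added, and 12 initiation factors lower, with Eif4ebp1 added. The block with offsets called 824 genes higher and 1584 lower, 5 initiation factors higher and 12 lower, 3 elongation factors lower and 4 synthetases lower. Its medians were -0.15 for elongation factors and -0.11 for synthetases. Eif3j2, Eif4e1b and Eef1akmt3 had at most 11 counts in a mouse and did not pass the filter. Without the filter edgeR called Eif3j2 higher, and whether depth limits these 3 genes was not tested.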
